A study of Mus musculus with 6 samples.

Results

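The genes described here encode the machinery that copies DNA: 35 genes chosen by name, of 32285 in a raw count table of cultured mouse spermatogonia. They are the 6 MCM helicase genes, the genes of GINS, CDC45 and MCM10, origin licensing factors with their inhibitor geminin and the kinase CDK2, polymerase and primase subunits, the sliding clamp with its loaders, the enzymes that join Okazaki fragments, the histone chaperone CAF-1, and enzymes that supply nucleotides. The rule names the genes and uses no measured value, and the list was drawn up with earlier results of these data known.

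GS cells are cultured mouse spermatogonia that keep properties of spermatogonial stem cells. Every group carried a Cdkn1c gene flanked by loxP sites (flox/flox), and Cdkn1c encodes p57, an inhibitor of cyclin-dependent kinases. Per the labels, 3 libraries came from p57 flox/flox cells (control) and 3 from p57 flox/flox-Cre cells (p57 KO), with Cre recombinase brought in by an adenovirus, and harvest came 2 days after infection, over a Sephadex column. What part of Cdkn1c the Cre removes, and whether controls got any virus, was not stated. Nothing in the labels tells if replicates were separate cultures, so p-values measure only the spread among these samples, which could be technical. Donor mice were 3 days old by the growth protocol and 10 days old by the design text. The model label reads BDF1, while the design text names the strains C57BL/6 and 129.

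In the G1 phase of a dividing cell, the origin recognition complex, CDC6 and CDT1 load the MCM2 to MCM7 ring onto DNA. In S phase, CDC45 and GINS turn that ring into an active helicase, polymerases copy the strands, and geminin binds CDT1 so that no origin is loaded again. Many of these genes are known targets of E2F transcription factors, which cyclin-dependent kinases release from the RB protein, and p57 inhibits those kinases. The comparison therefore asks whether the RNA of this machinery differed after Cdkn1c was targeted.

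Total counts per library lay between 15662833 and 17893671. The targeted gene, Cdkn1c, had 20.7 ± 0.782 CPM in control against 8.89 ± 0.486 CPM in p57 KO (CPM, counts scaled to the library's total with TMM factors; SD, n = 3 per group), which is -1.22 on the log2 scale (SE 0.09, adjusted p = 4.07e-09 in edgeR). The germ cell markers Ddx4 and Dazl had 401 and 1115 CPM in control, so defining germ cell RNA was present. Markers of fibroblasts and feeder cells summed to 905 to 1160 CPM in control and 1426 to 2796 CPM in p57 KO. The sum was highest in p57 KO replicate 3. All 17 listed genes were detected and had a positive log2 fold change (median 1.44), and 5 passed as higher. Macrophage markers (4 of 5 under 1 CPM in control) summed to 12.8 to 13.8 CPM in control and 18.2 to 22 CPM in p57 KO, and 10 markers of undifferentiated spermatogonia to 2296 to 2377 and 1902 to 2030 CPM, with 9 that fell. The ranges in control and p57 KO were 34.9 to 41.1 and 38.1 to 41 CPM for Sertoli cells, 2.94 to 3.88 and 3.14 to 3.29 CPM for Leydig cells (Hsd3b1 at 0 counts in all libraries), 82.2 to 86.1 and 74.5 to 77.9 CPM for endothelium, and 1988 to 2070 and 1767 to 1850 CPM for germ cells in general. Of the tested markers, 3 of 3 for macrophages and 1 of 5 for Sertoli cells rose, and the 1 for Leydig cells did not pass. For endothelium 1 of 4 rose and 2 fell, and for germ cells in general 0 of 5 rose and 2 fell. Over all tested genes 11.6% passed in each direction. Dazl was among those that fell (log2 fold change -0.25, adjusted p = 1.62e-05 in edgeR). In bulk RNA, fewer cells of a type and less RNA per cell cannot be told apart. The part of macrophages, Sertoli cells, Leydig cells and endothelium in the results below was not tested.

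RNA of the replication machinery differed little between the groups. All 35 genes passed the filter on low counts, with 257 to 7990 counts per library. In p57 KO, Gmnn and Pola1 rose, and Mcm4, Mcm5, Mcm7, Pold1, Rfc5 and Rrm1 fell, by edgeR's quasi-likelihood test at an adjusted p under 0.05. Those are 8 of 35 genes, where 23.3% of all 14814 tested genes passed. By direction that is 5.71% of the genes higher, where 11.6% of all tested genes were higher, and 17.1% lower, where 11.6% of all were lower. Among the 8194 genes within the same range of mean CPM, 9.68% were higher and 18.6% lower, so both shares lay near or below their background. The log2 fold change was negative for 20 of 35 genes and for 50.4% of all tested genes. The median log2 fold change was -0.019 for the 35 genes, -0.0019 for all tested genes and -0.028 for the genes of the same CPM range.

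Every difference was small. The log2 fold changes ran from -0.15 (Rfc5) to 0.19 (Gmnn), and 28 of 35 lay within 0.1 of 0. Their median size, sign aside, was 0.069. It was 0.080 for genes of the same CPM range and 0.12 for all tested genes, so small differences were common at these levels. No share over all genes was taken for the counts within 0.1 of 0 or within 1.2-fold. For 32 genes the 95% interval of the log2 fold change lay within a 1.2-fold difference either way (0.26 on the log2 scale). The upper bound passed that limit for Gins3 (0.31), Gmnn (0.30) and Pola1 (0.31). In a test of whether the fold exceeded 1.2 (edgeR's glmTreat), 0 of the 35 passed, where 2.79% of all genes passed higher and 0.371% lower; 0 also had an unadjusted p under 0.05 in that test. The CPM of a gene varied between replicates by a median of 2.72% of its mean in control and 3.32% in p57 KO (CV).

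Whether the groups overlapped was also counted. The share of genes wholly lower in p57 KO lay above that of all tested genes, and the share wholly higher lay below it. No background of genes in the same CPM range was taken for this count. The groups did not overlap in 12 genes, where 39.2% of all tested genes had no overlap. In 10 of the 12 every p57 KO library was below every control library, 28.6% of the 35, where 19.7% of all tested genes had that order. In Gmnn and Pola1 every p57 KO library was above, 5.71%, where 19.5% of all genes were. Both shares describe the list and are no test of it.

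**Figure D1:**
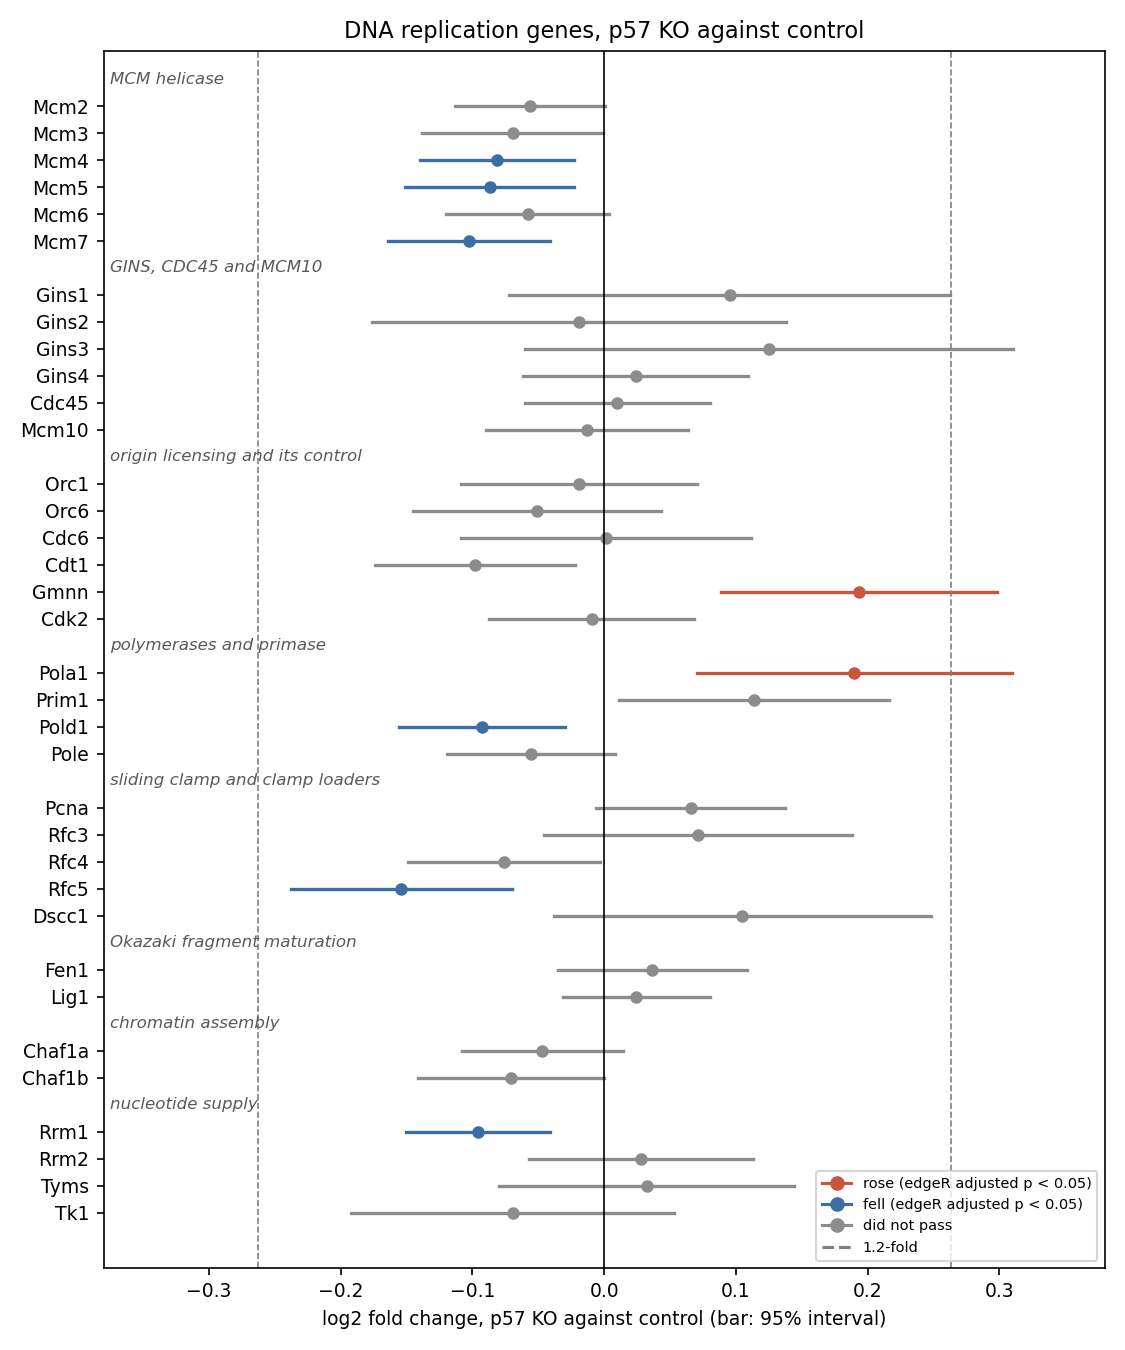
Log2 fold change of each of the 35 replication genes, p57 KO against control, on the x axis, with genes on the y axis grouped by role, the 95% interval as a bar, and dashed lines at a 1.2-fold difference. The 2 genes that rose and the 6 that fell are coloured, and all points lie between -0.15 and 0.19.

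Letters of known motifs were counted in the promoters of these genes. The choice of genes used no sequence, but many of them are known E2F targets. RefSeq promoter windows of 300 bases (250 before to 50 after the start, build GRCm38.p6) were matched by symbol for 28 of the 35 genes, and Mcm4, Dscc1, Pole, Gmnn, Gins1, Gins2 and Gins4 were not matched. E2F factors bind words of the form TTTCCCGC, TTTCGCGC, TTTGCCGC or TTTGGCGC, and at least 1 of these on either strand stood in a window of 13 of 28 genes, or 46.4%. The share was 11 of 55 further replication genes and 4.61% of 11421 tested genes with a window. The CHR words TTTGAA and TTCGAA, known from genes of late cell cycle phases, were in 21.4% of the 28 and 16.3% of tested genes, and CCAAT, bound by NF-Y, in 64.3% and 43.1%. Median GC content was 58.8% over the windows of the 28 genes and 60.7% over those of tested genes. A match is a description of letters, and nothing about binding was measured.

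**Figure D2:**
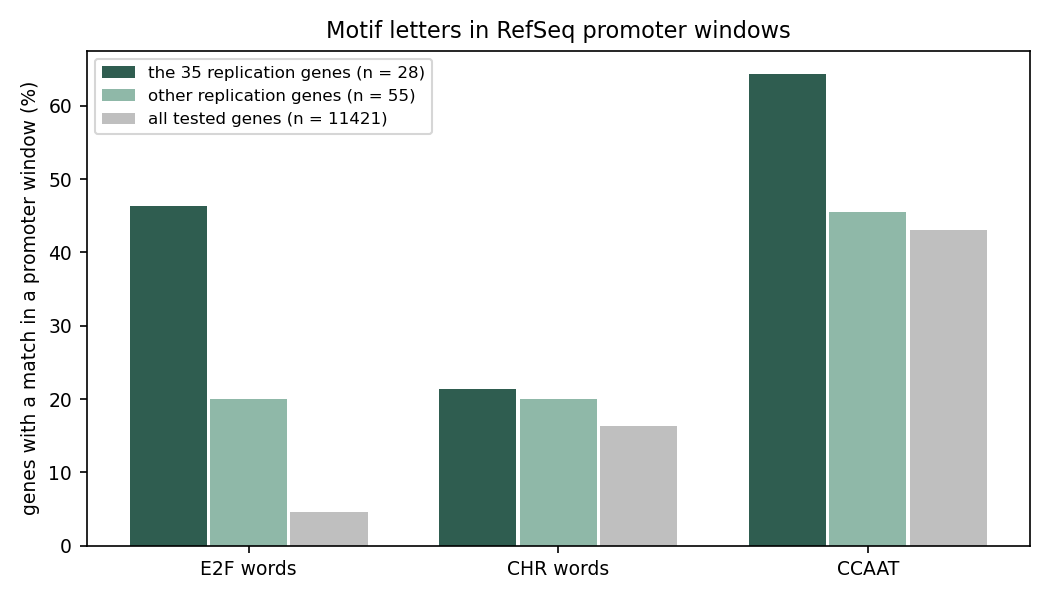
Percentage of genes (y axis) with at least 1 match of the E2F words, the CHR words or CCAAT (x axis) in a RefSeq promoter window, for 28 matched replication genes, 55 further replication genes and 11421 tested genes. The E2F words stood in 46.4% of the first set, 11 of 55 in the second and 4.61% of the third.

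Stretches just before the start of 5 genes show how these words lie, written 5′ to 3′ along the gene's strand. They were chosen after their values and words were seen, because they cover a helicase gene that fell (Mcm5), one that did not pass (Mcm6), a licensing gene near no difference (Cdc6), a gene that rose (Pola1) and one that fell without an E2F word (Rrm1). Capitals mark the E2F words and CCAAT on either strand, so that ATTGG is CCAAT on the opposite strand.
Mcm5 promoter, chr8:75109349-75109508, plus strand: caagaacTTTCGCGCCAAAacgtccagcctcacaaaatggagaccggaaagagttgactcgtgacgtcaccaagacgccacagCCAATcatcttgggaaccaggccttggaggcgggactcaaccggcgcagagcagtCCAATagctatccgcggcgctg
Mcm6 promoter, chr1:128359706-128359865, minus strand: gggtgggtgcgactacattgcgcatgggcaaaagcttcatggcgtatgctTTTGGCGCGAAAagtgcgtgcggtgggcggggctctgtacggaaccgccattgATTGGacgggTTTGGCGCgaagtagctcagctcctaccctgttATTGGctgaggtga
Cdc6 promoter, chr11:98907991-98908150, plus strand: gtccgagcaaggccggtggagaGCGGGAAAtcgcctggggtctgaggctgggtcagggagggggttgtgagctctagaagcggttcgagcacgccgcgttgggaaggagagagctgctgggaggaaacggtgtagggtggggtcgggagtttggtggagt
Pola1 promoter, chrX:93632156-93632315, minus strand: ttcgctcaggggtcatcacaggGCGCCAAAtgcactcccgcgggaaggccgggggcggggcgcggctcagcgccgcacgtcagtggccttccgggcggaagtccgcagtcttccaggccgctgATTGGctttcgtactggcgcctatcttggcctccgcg
Rrm1 promoter, chr7:102441535-102441694, plus strand: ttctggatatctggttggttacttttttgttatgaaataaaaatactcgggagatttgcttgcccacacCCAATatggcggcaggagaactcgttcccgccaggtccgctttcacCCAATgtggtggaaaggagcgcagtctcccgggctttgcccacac
In Mcm5 and Mcm6 a pair of E2F words on opposite strands overlapped, which reads TTTCGCGCCAAA in Mcm5 and TTTGGCGCGAAA in Mcm6, and Mcm6 held another at 47 bases before the start. Cdc6 and Pola1 held 1 word each, at 138 bases before the start in both, on the opposite strand. Mcm5, which fell, and Pola1, which rose, both had E2F words, and Rrm1, which fell, had 2 CCAAT words and none of the E2F words. Whether such words go with the direction of a difference was not tested. No match says only that these letters are not in this window.

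The MCM2 to MCM7 genes encode the ring-shaped helicase that unwinds DNA at the fork. Per kilobase of exon their levels ran from 58.9 FPKM (Mcm6) to 130 FPKM (Mcm4) in control (FPKM, CPM per kilobase of all annotated exons). All 6 had a negative log2 fold change, from -0.10 (Mcm7) to -0.056 (Mcm2), and 3 passed the test as lower; over all tested genes 50.4% were negative and 11.6% passed as lower, and 18.6% did in the same range of CPM. Their CPM summed to 2232, 2226 and 2210 in control replicates 1 to 3 and to 2121, 2170 and 2035 in p57 KO replicates 1 to 3. The sums did not overlap, and p57 KO replicate 3 was the lowest. The order of every p57 KO library below every control library also held for 19.7% of all single genes tested.

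Mcm7 had 407, 411 and 391 CPM in the control libraries and 379, 386 and 361 CPM in the p57 KO libraries. The groups did not overlap, with the log2 fold change at -0.10 (SE 0.03, adjusted p = 0.0148 in edgeR). The gene lies at chr5:138164583-138172422 (mm10, minus strand), and 7.25% of its exon bases overlap Ap4m1 on the other strand. Without control replicate 1, control replicate 2 or p57 KO replicate 3 its edgeR adjusted p was 0.0569, 0.0751 or 0.0938.

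Mcm4 had 462, 470 and 473 CPM in control and 451, 451 and 426 CPM in p57 KO. The groups did not overlap, and p57 KO replicate 3 stood below the other 2 of its group. The log2 fold change was -0.08 (SE 0.03, adjusted p = 0.0404 in edgeR), and the call was lost in 4 of the 6 fits that left out 1 library, with -0.054 (adjusted p = 0.232) without p57 KO replicate 3. Mcm5 had 323, 314 and 326 CPM in control and 299, 317 and 291 CPM in p57 KO, so that p57 KO replicate 2 lay within the control range. Its log2 fold change was -0.09 (SE 0.03, adjusted p = 0.0461 in edgeR), and 1 of those 6 fits called it. DESeq2 gave Mcm5 an adjusted p of 0.0582.

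Mcm2, Mcm3 and Mcm6 did not pass. Mcm2 had 438, 438 and 450 CPM in control and 424, 437 and 416 CPM in p57 KO, without overlap (log2 fold change -0.056, adjusted p = 0.146 in edgeR). Mcm3 and Mcm6 overlapped between groups, with log2 fold changes of -0.07 and -0.06 (adjusted p = 0.135 in edgeR and 0.165). The 95% intervals of the 6 helicase genes together spanned -0.16 to 0.0035 on the log2 scale.

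CDC45 and the GINS complex (Gins1 to Gins4) join the MCM ring to make it an active helicase, and MCM10 helps start it. None of these 6 genes passed the test. Their log2 fold changes lay between -0.019 (Gins2) and 0.13 (Gins3), with 4 of 6 above 0. Cdc45 had 134 ± 4.49 CPM in control against 135 ± 1.82 CPM in p57 KO (SD, n = 3 per group; log2 fold change 0.01, interval -0.06 to 0.08). Mcm10 had 93.3 ± 2.53 and 92.4 ± 0.894 CPM (log2 fold change -0.013, interval -0.09 to 0.06).

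The 4 GINS genes, whose proteins form a complex with 1 copy of each, had uneven RNA levels per kilobase. Gins4 had 48.4 FPKM in control, Gins1 17, Gins3 6.39 and Gins2 4.94 FPKM. Before division by exon length the control means were 65.3, 25.7, 17.3 and 20.2 CPM in the same order. Annotated exon length ran from 1349 bases (Gins4) to 4097 bases (Gins2), so the unevenness depends in part on that length. The annotated exons of Gins2 overlap Gse1 on the other strand over 67.3% of their length, so its level per length is uncertain. Gins3 had 18, 15.1 and 18.9 CPM in control and 20.4, 18.3 and 17.9 CPM in p57 KO, which overlap. At such levels the intervals were wide, from -0.06 to 0.31 for Gins3 and from -0.18 to 0.14 for Gins2.

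Licensing factors load the helicase in G1, and geminin blocks CDT1 after origins have fired. Of the 6 genes, Gmnn rose and none fell. Gmnn had 57.6, 55.7 and 50.3 CPM in the control libraries and 62.4, 64.1 and 60.7 CPM in the p57 KO libraries. The groups did not overlap, and control replicate 3 was the lowest of all. The log2 fold change was 0.19 (SE 0.05, adjusted p = 0.00761 in edgeR), a rise of 14.3%, and without control replicate 3 it was 0.14 (adjusted p = 0.0766). Gmnn lies at chr13:24751845-24761923 (mm10, minus strand).

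Cdt1, the loading factor that geminin inhibits, had 155, 155 and 156 CPM in control and 153, 147 and 136 CPM in p57 KO. Every p57 KO library was below control, most in replicate 3, but the gene did not pass (log2 fold change -0.10, SE 0.04, adjusted p = 0.0573 in edgeR). It passed without p57 KO replicate 1 (-0.14, adjusted p = 0.00574) and with no filter on low counts (-0.10, adjusted p = 0.0206). The ratio of Gmnn to Cdt1 counts within a library does not depend on scaling. It was 0.371, 0.359 and 0.322 in control and 0.408, 0.436 and 0.445 in p57 KO, without overlap. This ratio and 3 others of single genes given below were chosen after the values were seen, and an exact two-sided permutation test gave p = 0.1 for each, also after Benjamini-Hochberg adjustment over the 4, which is the smallest that 3 against 3 libraries allow.

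The other licensing genes lay close to no difference. Cdc6, the ATPase that brings the MCM ring to the origin, had 53.2 ± 0.827 CPM in control against 53.3 ± 4.07 CPM in p57 KO (SD, n = 3 per group; log2 fold change 0.0012, interval -0.11 to 0.11). Orc1 and Orc6, subunits of the origin recognition complex, had log2 fold changes of -0.019 and -0.05, with intervals from -0.11 to 0.07 and from -0.15 to 0.04. Cdk2, the kinase that p57 binds with cyclin E or A, had -0.0094 (interval -0.09 to 0.07). A p above the threshold does not show equal levels, and these intervals give the sizes that the data allow.

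Polymerase and primase subunits moved both ways. Pola1, the catalytic subunit of the polymerase that makes the RNA-DNA primers, had 32.8, 34.1 and 35.3 CPM in control and 39.5, 40.0 and 37.1 CPM in p57 KO. The groups did not overlap, and the gene rose with a log2 fold change of 0.19 (SE 0.06, adjusted p = 0.0194 in edgeR). Its adjusted p was 0.121 in DESeq2, and 0.0973, 0.0576 and 0.0822 in edgeR without control replicate 1, control replicate 2 and p57 KO replicate 2. Pola1 is long and weakly expressed, with 3.86 FPKM in control, the lowest level per kilobase of the 35, and lies at chrX:93304767-93632155 (mm10, minus strand).

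Pold1, the catalytic subunit of the lagging-strand polymerase delta, had 284, 287 and 284 CPM in control and 276, 272 and 254 CPM in p57 KO. The groups did not overlap, with the lowest value in p57 KO replicate 3. It fell by 0.093 on the log2 scale (SE 0.03, adjusted p = 0.0304 in edgeR). Left out 1 at a time, 4 libraries ended that call, and without p57 KO replicate 3 the value was -0.057 (adjusted p = 0.221). The ratio of Pola1 to Pold1 counts was 0.115, 0.119 and 0.124 in control and 0.143, 0.147 and 0.146 in p57 KO, without overlap. Prim1, the primase that works with POLA1, and Pole, the leading-strand polymerase epsilon, did not pass, with log2 fold changes of 0.11 (adjusted p = 0.0994 in edgeR) and -0.06 (0.204).

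**Figure D3:**
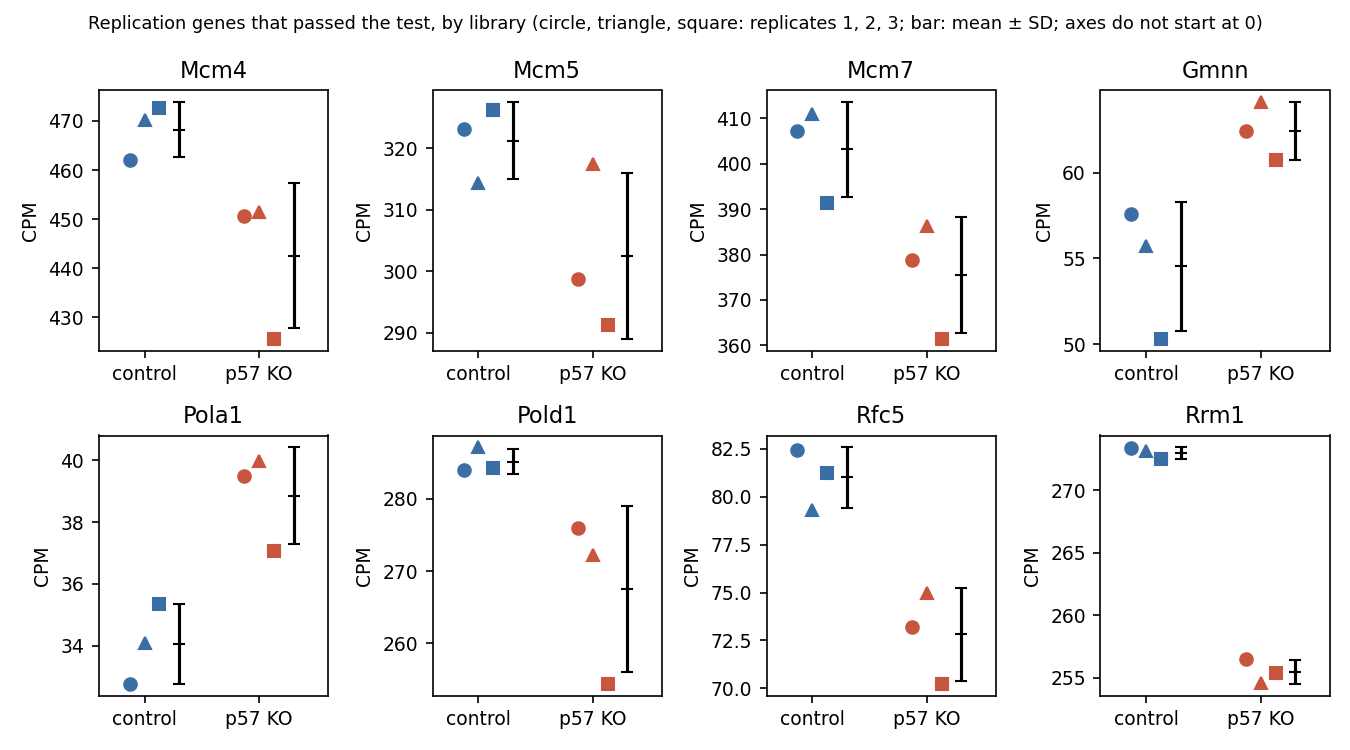
CPM (y axis, not from 0) of the 8 replication genes that passed the test, by group (x axis), with circle, triangle and square for replicates 1, 2 and 3 and a bar for mean ± SD. Mcm5 is the 1 gene whose groups overlap, and p57 KO replicate 3 is the lowest library for Mcm4, Mcm5, Mcm7, Pold1 and Rfc5.

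PCNA is the sliding clamp that holds polymerases on DNA, RFC loads it, and DSCC1 belongs to an alternative loader. Rfc5 was the gene of the 35 with the lowest log2 fold change. It had 82.4, 79.3 and 81.2 CPM in control and 73.2, 75.0 and 70.2 CPM in p57 KO. The groups were well apart, at -0.15 (SE 0.04, adjusted p = 0.00788 in edgeR), and each of the 6 fits that left out 1 library called it. It lies at chr5:117378103-117389047 (mm10, minus strand), and 10.7% of its exon bases overlap Wsb2 on the other strand.

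Other subunits of the loader did not pass. Rfc4 had 107, 105 and 106 CPM in control and 101, 102 and 98.5 CPM in p57 KO, without overlap (log2 fold change -0.08, adjusted p = 0.123 in edgeR), and Rfc3 had 0.07 (0.393). Within the libraries the ratio of Rfc5 to Rfc4 counts was 0.774, 0.753 and 0.763 in control and 0.723, 0.732 and 0.713 in p57 KO. Both are subunits of the same complex, and their ratio did not overlap between groups. The exons of Rfc4 overlap Eif4a2 on the other strand over 12.65% of their length. With the strand setting not stated, reads in such overlaps could be wrongly added to either count or lost from it. Pcna had 167, 164 and 167 CPM in control and 174, 183 and 165 CPM in p57 KO (log2 fold change 0.07, adjusted p = 0.181 in edgeR), with p57 KO replicate 3 inside the control range; without that library it passed (0.10, adjusted p = 0.0348). Dscc1 had 0.10 (adjusted p = 0.295).

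Fen1, the nuclease that trims Okazaki fragments, and Lig1, the ligase that seals them, did not pass. Lig1 had 306 ± 2.12 CPM in control against 312 ± 6.52 CPM in p57 KO (SD, n = 3 per group; log2 fold change 0.024, interval -0.03 to 0.08). Fen1 had 0.04 (interval -0.04 to 0.11). Chaf1a and Chaf1b, subunits of the histone chaperone CAF-1 that packs new DNA, did not pass either, at -0.047 and -0.07 (adjusted p = 0.269 in edgeR and 0.139). In both every p57 KO library was below every control library. The exons of Chaf1a overlap Ubxn6 on the other strand over 52.5% of their length.

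Among nucleotide supply genes, Rrm1 fell and 3 did not pass. Rrm1 encodes the large subunit of ribonucleotide reductase, which makes deoxynucleotides. It had 273, 273 and 272 CPM in the control libraries and 256, 255 and 255 CPM in the p57 KO libraries. No overlap was seen between groups. The CV of 0.166% in control and 0.373% in p57 KO, the lowest of the 35 genes, is below what counting error alone gives at 4064 to 4641 counts per library, so the SE of the fit is the measure of error to use. The log2 fold change was -0.10 (SE 0.03, adjusted p = 0.0109 in edgeR), 6.42% below control, and all 6 fits that left out 1 library called it. Rrm1 lies at chr7:102441695-102469771 (mm10, plus strand).

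Rrm2, the small subunit, had 83.5 ± 3.16 CPM in control against 85.2 ± 3.07 CPM in p57 KO (SD, n = 3 per group; log2 fold change 0.028, interval -0.06 to 0.11). The ratio of Rrm1 to Rrm2 counts was 3.42, 3.19 and 3.20 in control and 3.10, 2.87 and 3.03 in p57 KO, without overlap. Tyms, which makes thymidylate, and Tk1, which salvages thymidine, had log2 fold changes of 0.03 and -0.07 (adjusted p = 0.715 in edgeR and 0.424).

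**Figure D4:**
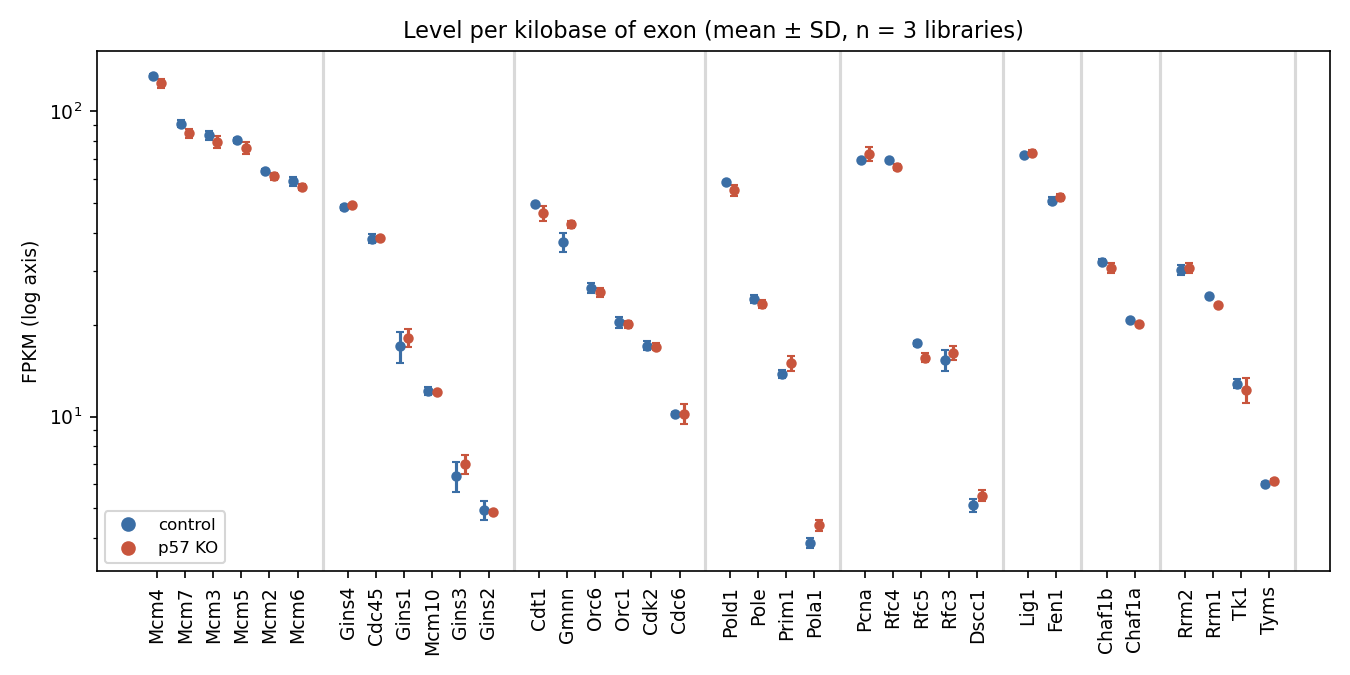
Level per kilobase of exon (FPKM, log y axis) of the 35 replication genes in control and p57 KO, mean ± SD over 3 libraries, grouped by role from the MCM genes on the left to nucleotide supply on the right. The MCM genes stand between 58.9 and 130 FPKM in control, and Pola1 is lowest with 3.86 FPKM.

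Further genes of the pathway, 66 in a list that holds none of the 35, are given for comparison, with log2 fold changes from -0.40 (Chtf8, at 1.7 CPM in control) to 0.28 (Pold4), neither of which passed. All were tested, 5 rose and 12 fell, or 7.58% and 18.2%, against 11.6% of all genes in each direction. Among genes within the CPM range of the 35, 9.68% were higher and 18.6% lower. The median log2 fold change of the 66 was -0.0065. The median size of the log2 fold change, sign aside, was 0.085 for the 66 and 0.069 for the 35. Of the 15 origin licensing and firing genes among them 5 fell and 0 rose, and of 8 polymerase and primase subunits none passed. Among 11 genes of clamp loaders, RPA and fork protection 1 rose and 2 fell, among 6 of flap processing and topoisomerases 1 rose and 0 fell, and among 8 histone handling genes 2 rose and 1 fell. Of 11 nucleotide supply genes 0 rose and 2 fell, and of 7 genes of CDK2 cyclins and the CDT1-degrading ligase 1 rose and 2 fell.

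Of the 8 with the smallest p, Mcmbp, which encodes an MCM-binding protein, stood out in size. It had 201, 204 and 198 CPM in control and 173, 169 and 160 CPM in p57 KO, without overlap. The log2 fold change was -0.27 (SE 0.03, adjusted p = 4.69e-06 in edgeR), larger in size than that of any of the 35 genes. Ccne1, the gene of cyclin E1, which activates CDK2, had 42.3, 43.5 and 45.5 CPM in control and 51.2, 51.7 and 49.0 CPM in p57 KO. It rose by 0.21 on the log2 scale (SE 0.05, adjusted p = 0.00429 in edgeR).

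Cdc7, the kinase that activates loaded MCM, fell by 0.14 on the log2 scale. Shmt1 and Dctd, enzymes of thymidylate supply, had log2 fold changes of -0.12 and -0.13 and Cul4b, a ubiquitin ligase scaffold, had -0.10, and all 3 fell. Clspn, which links the fork to the checkpoint, and Nasp, a histone chaperone, rose by 0.12 and 0.09. Cdc7 lost its call without control replicate 2, Clspn without control replicate 3 or p57 KO replicate 2, Dctd without control replicate 1 or 3, Cul4b without control replicate 2 or p57 KO replicate 3, and Nasp without control replicate 3, with adjusted p in edgeR from 0.0525 (Dctd) to 0.147 (Nasp). Among these 8 genes, only Mcmbp, Ccne1 and Shmt1 kept their call in each fit that left out 1 library. The remaining origin recognition subunits, chosen after the values were seen, all had negative log2 fold changes: -0.12 (Orc2), -0.10 (Orc3), -0.13 (Orc4) and -0.13 (Orc5), and Orc2 and Orc4 passed (adjusted p = 0.0287 in edgeR and 0.049). Orc2 lost its call without control replicate 1, control replicate 2 or p57 KO replicate 3 (adjusted p in edgeR from 0.0844 to 0.12), with upper quartile scaling (0.0693) and in DESeq2 (0.115). Orc4 lost it in 5 of the 6 fits that left out 1 library, all but that without p57 KO replicate 1 (0.0678 to 0.187), with upper quartile scaling (0.0955), with a filter of 1 CPM in 3 libraries (0.0555) and in DESeq2 (0.185). The exons of Orc2 overlap Nif3l1 on the other strand over 29.8% of their length.

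Seen by library, p57 KO replicate 3 differed from the other 2 of its group. It held the lowest CPM of its group for 22 of the 35 genes, p57 KO replicate 1 for 8 and p57 KO replicate 2 for 5. Among the control libraries, replicate 3 was lowest for 16, replicate 2 for 11 and replicate 1 for 8. No share over all genes was taken for these counts. The median distance of the 35 genes from the control mean was -0.015, 0.0089 and -0.048 log2 CPM in p57 KO replicates 1, 2 and 3. For all tested genes it was 0.0054, 0.0021 and -0.0063, and for the 6 MCM genes it was -0.06, -0.025 and -0.14. The 35 genes took 0.541%, 0.539% and 0.535% of all counts in control and 0.524%, 0.533% and 0.507% in p57 KO. Without p57 KO replicate 3, 3 of the 35 genes rose (Gmnn, Pola1 and Pcna, where 9.71% of all genes rose). In the same fit 2 fell (Rfc5 and Rrm1, where 8.52% of all genes fell). MCM2 to MCM7 counts per GINS count were 17, 17.1 and 17.8 in control and 15.9, 16.5 and 15.2 in p57 KO, a ratio chosen after the values were seen and not tested.

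**Figure D5:**
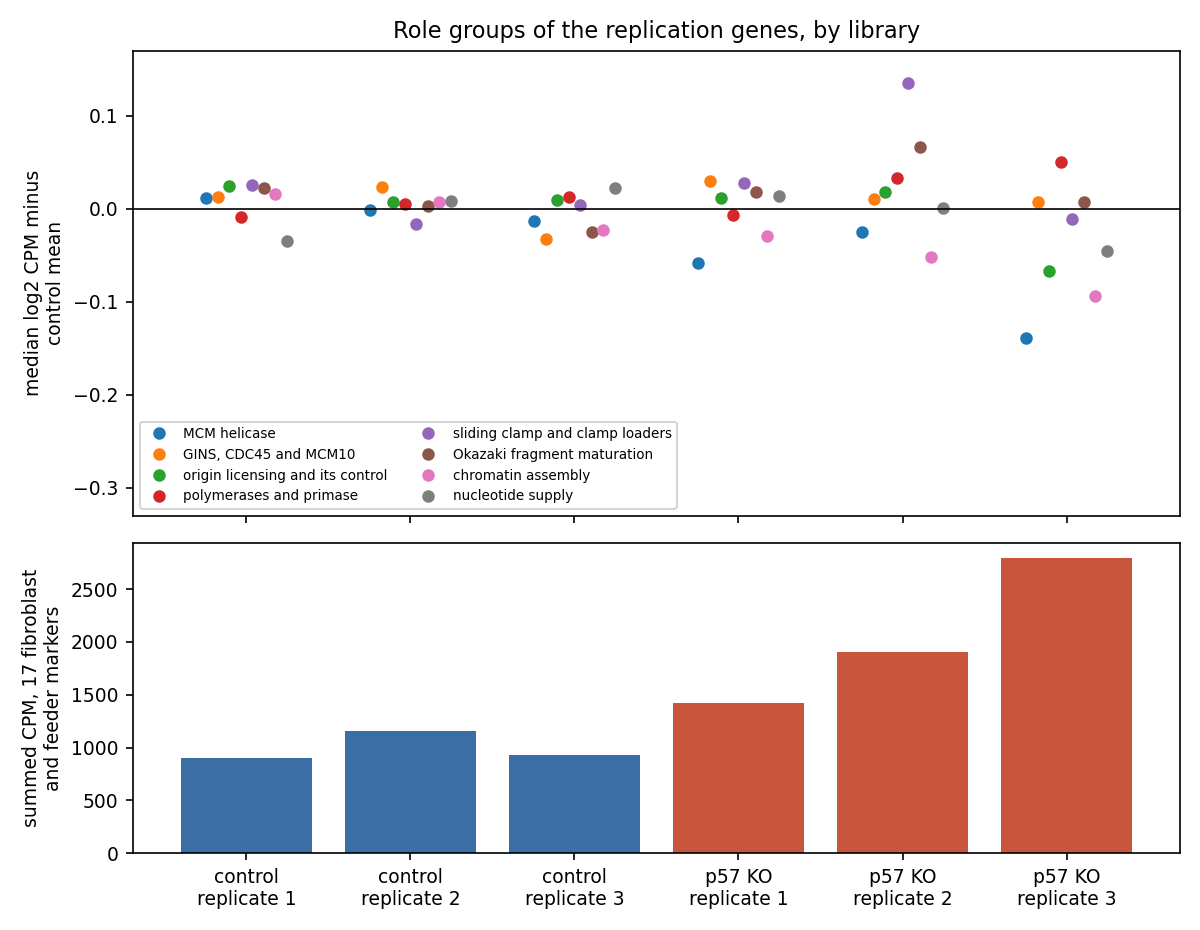
Upper panel: median log2 CPM of each role group minus its control mean (y axis) in the 6 libraries (x axis). Lower panel: summed CPM of 17 fibroblast and feeder markers in the same libraries, which is 1426, 1901 and 2796 in p57 KO replicates 1, 2 and 3, where the MCM median is -0.06, -0.025 and -0.14.

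The fibroblast and feeder sum was 1426, 1901 and 2796 CPM in p57 KO replicates 1, 2 and 3, in which the MCM median was -0.06, -0.025 and -0.14. The MCM median was nearest to control in replicate 2 and lowest in replicate 3. Whether sum and median go together was not tested and cannot be judged from 3 libraries. The part of these cells in the differences was not tested beyond the next fit. In an edgeR fit that also held the mean log2 CPM of those markers, 0 of the 35 genes passed (4 had an unadjusted p under 0.05), where 1.53% of all genes rose and 1.03% fell. The values then were -0.09 for Rrm1, -0.08 for Rfc5, -0.07 for Mcm7, -0.021 for Mcm4, -0.034 for Mcm5, -0.0055 for Pold1, 0.21 for Gmnn and 0.26 for Pola1, with adjusted p from 0.243 to 0.983. The score was 3.68, 4.25 and 3.72 in control and 4.55, 5.16 and 5.68 in p57 KO (log2 CPM) without overlap, so that it cannot be told apart from the group. Upper quartile scaling gave 2003 genes higher and 1291 lower among all genes, in place of 1725 and 1725, and 2 higher and 3 lower among the 35, the latter Mcm7, Rfc5 and Rrm1; of all genes that was 13.5% higher and 8.71% lower.

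The counts of called genes moved with the library left out, as did those over all genes. Without control replicate 1, 1 of the 35 rose and 2 fell, where 8.12% and 8.62% of all genes did. Without control replicate 2 the counts were 1 and 2, with 9.57% and 8.9% of all genes, and without control replicate 3 they were 1 and 3, with 7.78% and 7.77%. Without p57 KO replicate 1, 3 rose and 6 fell (14.2% and 12.5% of all genes), and without p57 KO replicate 2, 1 rose and 6 fell (8.55% and 8.87%). Rfc5 and Rrm1 fell in all 6 fits that left out 1 library. DESeq2 called 1 of the 35 higher and 5 lower, where it called 8.69% and 7.09% of all genes, and with the replicate number as a block edgeR called 2 and 7, where it called 13.1% and 12% of all.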

How the data were processed

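The authors deposited a table of whole-number counts with 1 column per library, and its values show no normalization. HISAT2 2.2.1 and HTSeq 2.0.2, with cutadapt 3.4, bcl2fastq 2.20 and build mm10, appear in the submitters' processing notes. No annotation, strand setting or handling of multiply mapped reads was stated there, so counts of genes that overlap on opposite strands are uncertain. Positions and exon lengths came from GENCODE M21, where 32235 of 32285 identifiers were found.

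Genes were filtered with filterByExpr (14814 left), scaled by TMM and tested with edgeR 4.0.16's quasi-likelihood test (R 4.3.3), group as the only term, robust dispersions, Benjamini-Hochberg adjustment over all tested genes and a threshold of 0.05. The common biological coefficient of variation was 4.35%. CPM uses the TMM-scaled totals. Intervals are 95%. The log2 levels per library added 0.5 counts. The script was tested on simulated data.

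The 35 genes and the lists of further replication genes and of cell type markers were chosen with earlier results of these data known. Named by rule were all 35, Cdkn1c, the 8 further replication genes of smallest p (more than 8 passed), and from each marker list the genes of highest and lowest mean CPM and the 3 of smallest p, of which the few that a result needs are printed. Alternatives were RLE, upper quartile and total count scaling, DESeq2 1.42.0, limma-voom (limma 3.58.1), 2 other filters, a replicate block, a test against a fold of 1.2, a fibroblast marker covariate, and each library left out. Pairs of replicates differed by more than sampling noise (chi-square per degree of freedom 1.69 to 5.97).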

Additional observations from a re-analysis of the deposited data

How the results depend on the processing

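Of 16 alternatives, none changed the direction of the 8 genes that passed, while 13 of the other 27 changed sign in at least 1 alternative. The 8 were picked by their test in these same libraries, so refits of the same counts are no independent check of their direction. The test against a fold of 1.2 keeps the fold changes of the main fit and could not change a sign. Among the 35 genes, 1 rose with DESeq2 and 3 fell with upper quartile scaling, and 0 rose and 0 fell in the test against a fold of 1.2 and with the fibroblast marker score. In fits that left out 1 library, 1 to 3 rose and 2 to 6 fell, and the median log2 fold change was -0.037 to -0.0039. The median log2 fold change of the 35 was 0.0025 with upper quartile scaling. Of the 66 further genes, 3 rose and 6 fell with DESeq2, 4 fell with upper quartile scaling, 0 passed against a fold of 1.2 or with the score, and 1 to 6 rose and 4 to 15 fell with 1 library left out. Over all genes, 414 rose and 55 fell against a fold of 1.2, 226 and 153 with the score, 1102 fell with DESeq2, and 1180 to 2136 rose and 1178 to 1893 fell with 1 library left out. The cause of these changes was not tested. Library titles use the same replicate numbers in both groups. Deviations from the group mean correlated between libraries of the same number at 0.18, 0.023 and -0.097 for numbers 1, 2 and 3. Between libraries of unlike number the correlations ran from -0.27 (control replicate 2 with p57 KO replicate 1) to 0.26 (control replicate 2 with p57 KO replicate 3). With 3 libraries a group these values cannot settle whether the numbers mark pairs. With the replicate block 2 of the 35 rose and 7 fell, the added gene being Cdt1 (-0.10, edgeR adjusted p = 0.0392). The lowest count of any of the 35 genes in a library was 257, and depth limits the precision for such genes to the width of their intervals.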
